A study of Mus musculus with 12 samples.

Results

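Acute-phase plasma proteins are secreted carriers, scavengers and inhibitors whose blood levels change within days of injury or infection. The liver makes most of them. Interleukin-6 acts on their genes through the receptor subunit gp130 and the transcription factor STAT3, interleukin-1 acts through NF-kB and C/EBP factors, and glucocorticoids add to both. Fat cells, white blood cells and cells of the osteoblast lineage also transcribe some of these genes, Lcn2 among them in bone-forming cells.

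The 9 genes described here were chosen by symbol. They are the orosomucoid genes Orm1, Orm2 and Orm3, with haptoglobin (Hp), hemopexin (Hpx), ceruloplasmin (Cp), lipocalin 2 (Lcn2), serum amyloid A3 (Saa3) and the protease inhibitor gene Serpina3n. All 9 were found among the 56691 genes of the count table. Their levels were measured in MC3T3-E1, a wild-type pre-osteoblast line from mouse calvaria, by 3' mRNA sequencing, which reads the end of each transcript. Cells of all 4 groups, the control included, had differentiated to day 28 under dexamethasone (0.1 µM, a glucocorticoid), ascorbic acid (50 µg/ml) and beta-glycerophosphate (10 mM BGP, which releases phosphate). The control received no further agent that the labels name, and its vehicle is not given. From day 27 the second group received 100 µM 25(OH)D, which is 25-hydroxyvitamin D, the main form of vitamin D in blood, for 24 h. The third group received it together with an extra 4 mM of BGP, and the fourth received it with 100 µM ZK191784. No group received ZK191784 or the extra BGP alone, and the doses are given as labelled: the unit of the 100 µM doses could not be checked and may be a slip. Each group had 3 libraries, numbered 1 to 3. The labels name no separate cultures for them, so a p-value here covers the spread of libraries, which may be technical.

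Counts per library ranged from 3318723 to 5170980. No pair of libraries within a group agreed so closely as to be a repeat deposit, and pairs across groups were not checked for this. Having counts does not by itself name a cell type, since all 8 adipocyte markers had counts in every group. All 9 osteoblast markers had counts in every group too. Their summed level, in TMM-scaled counts per 1000000 counts of the tested genes (CPM), was 124106 to 139072 in control, 21262 to 23925 with 25(OH)D, 17774 to 21171 with BGP added and 63330 to 74007 with ZK191784. The hepatocyte markers Alb, Ttr and Ahsg had 0 counts in all 12 libraries, and the 10 hepatocyte markers together stayed between 1.64 and 5.99 CPM. In a bulk sample a change in the number of cells of a type cannot be told apart from a change in RNA per cell.

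The sequence before the Orm start sites shows how alike these neighbours are. In RefSeq's gene order on chromosome 4, Orm1 is followed by the pseudogene Gm11212, Orm3, Orm2 and Akna. RefSeq promoters (GRCm38.p6) were found for 7 of the 9 genes, those other than Orm1 and Hp. Each promoter was searched on both strands over its 250 bases before the start for a C/EBP motif, TTGCNNAA, and a STAT motif, TTCNNNGAA. The stretches below cover positions -170 to -91, where -1 is the base before the annotated start, and the C/EBP match is in capitals. The Orm2 stretch is chr4:63362279-63362358 and the Orm3 stretch is chr4:63355988-63356067, both on the plus strand.
Orm2: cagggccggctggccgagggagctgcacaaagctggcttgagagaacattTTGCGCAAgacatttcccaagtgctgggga
Orm3: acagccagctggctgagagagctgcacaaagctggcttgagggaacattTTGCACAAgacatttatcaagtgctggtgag
The stretches were 85.19% identical over their alignment, and the whole 250 bases were 85.49% identical. The match starts at -120 in Orm2 and at -121 in Orm3. A match to the C/EBP motif was held by 9.56% of the 32851 promoters of the table over the same 250 bases, and a STAT match by 7.02%.

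The same motif was found before Cp, which fell with 25(OH)D, and before 3 genes with few counts, and these are printed for comparison with the Orm pair. Lcn2 held it at -216 (chr2:32387938-32387965, minus strand), Saa3 at -99 (chr7:46715758-46715785, minus strand) and Hpx at -200 (chr7:105600299-105600326, minus strand). Cp has 2 start sites in the table, and the second held it at -70 (chr3:19957169-19957196, plus strand). The first Cp start and Serpina3n held no match to it.
Lcn2: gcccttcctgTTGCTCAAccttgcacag
Saa3: gtaagtgggaTTATGCAAgatcaaacag
Hpx: ggctggaaatTTGCTGAAgggggtaggg
Cp: ttagttactcTTTTGCAAcattaaattg
In Saa3 and Cp the capitals read as the motif on the opposite strand. No STAT match was found in the 250 bases of these 7 genes. A vitamin D receptor direct repeat (GNTCA, a gap of 4 bases, GNTCA) was also not found there, and 0.55% of all promoters held one. A glucocorticoid receptor palindrome (GNACA, a gap of 3 bases, TGTNC), held by 0.39% of all promoters, was found at -78 of Serpina3n and in none of the other 6 genes. An NF-kB motif (GGGA, a gap of 4 bases, CC), held by 17.63%, was found before Serpina3n and at -146 of the second Cp start. A match is a run of letters and not a measured binding site, and a missing match says only that the letters are not in this window.

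Treatment with 25(OH)D went with higher orosomucoid and haptoglobin transcript levels and a lower ceruloplasmin level. Of the 9 genes, 5 had enough counts to be tested. Orm1, Orm2, Orm3 and Hp rose against control and Cp fell (edgeR's quasi-likelihood test, adjusted p under 0.05 over all 14394 genes tested). Among all genes tested in this comparison 4.76% rose and 3.93% fell. Orm2 and Orm3 passed the count filter only through the treated libraries, so the share of tested members that rose is a description and no more.

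**Figure D1:**
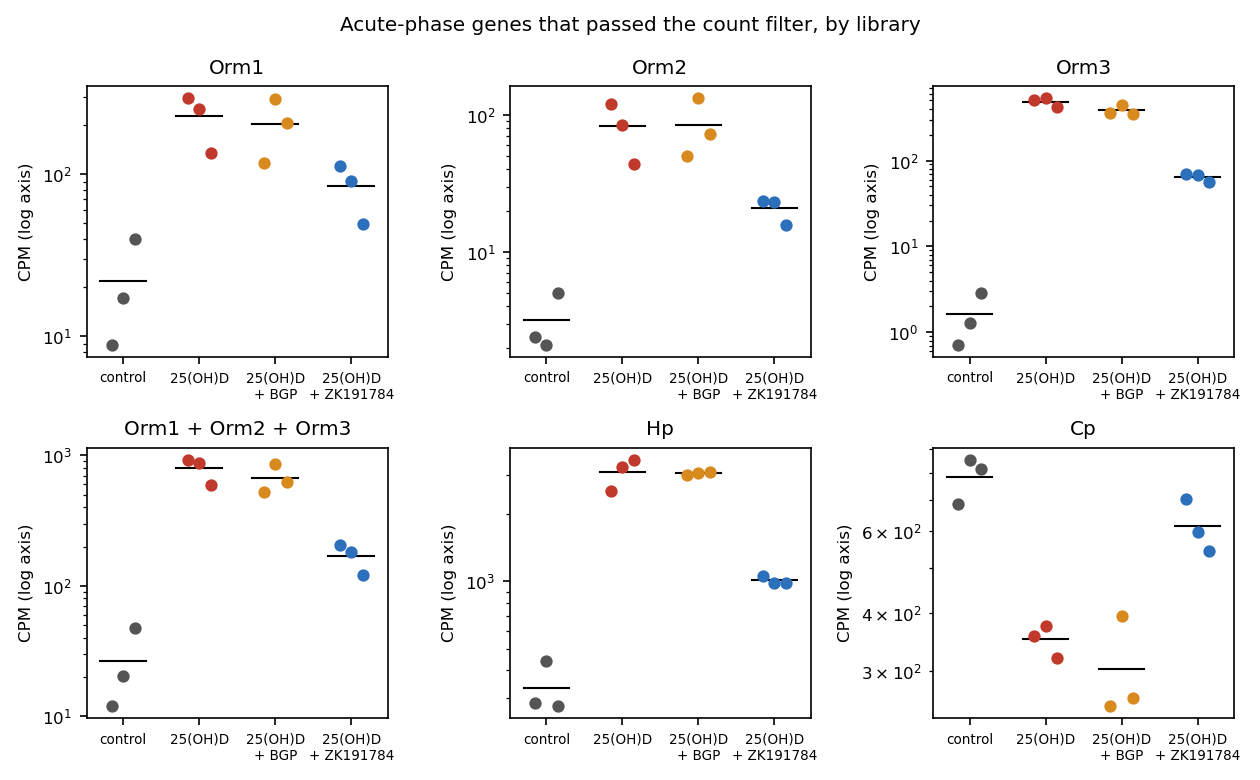
TMM-scaled CPM (log axis) of the genes that passed the count filter, and of the Orm sum, in each of 12 libraries; points are libraries 1 to 3 from left to right in each group and bars are group means. Control and 25(OH)D libraries do not overlap in any panel, and the ZK191784 libraries lie between them for Orm1, Orm2, Orm3, the sum and Hp.

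Orosomucoids, or alpha-1-acid glycoproteins, are plasma lipocalins that carry steroids and drugs. Orm3 stood at 0.719, 1.26 and 2.85 CPM in the control libraries, from 3, 6 and 12 counts. It stood at 508.9, 530.1 and 414.9 CPM with 25(OH)D. The lowest 25(OH)D library was far above the highest control library, and the fitted rise was 296.7-fold (log2 8.21, SE 0.34, adjusted p 3.6e-08). The size of that rise rests on few control counts. With 1 library left out it ran from 7.88 to 8.88 on the log2 scale, highest without control library 3.

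Orm1 had a less even start. Its control libraries held 8.87, 17.1 and 39.7 CPM, and its 25(OH)D libraries 293.6, 253.9 and 135.5 CPM. The groups did not overlap, and the rise was 10.4-fold (log2 3.38, SE 0.54, adjusted p 0.00151). Orm2 held 2.40, 2.11 and 4.996 CPM in control and 120.6, 84.6 and 43.6 CPM with 25(OH)D. That was a 26.1-fold rise with no overlap (log2 4.71, SE 0.51, adjusted p 7.2e-05). In both genes library 3 was the highest of the control and the lowest of the 25(OH)D libraries. With 1 library left out the rise of Orm1 ran from 3.00 to 4.13 on the log2 scale, highest without control library 3.

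Because reads of close copies can be split between them, the 3 genes were also summed. Aligned GENCODE transcripts of Orm1 and Orm2 were 97.67% identical over their last 300 bases, the end that this method reads, and 147 of 251 windows of 50 bases were the same in both. Orm3 was 90.7% identical to Orm1 and 91.36% to Orm2 there, with 16 and 26 shared windows. The separate levels of Orm1 and Orm2 are therefore uncertain, and so, with fewer shared windows, is that of Orm3. The sum was 12.0, 20.4 and 47.6 CPM in control and 923.3, 868.6 and 594.0 CPM with 25(OH)D. It rose 29.8-fold (log2 4.90, SE 0.46, adjusted p 2.35e-05), or by 5.62 on the log2 scale without control library 3.

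The make-up of the family differed between the groups. Orm1 held 80.3% ± 5.49 (SD, n = 3) of the Orm counts in control and 27.9% ± 4.63 with 25(OH)D. Orm3 held 6.06% ± 0.107 in control and 62.0% ± 7.41 with 25(OH)D. Orm2 kept a small part in both, 13.6% ± 5.54 and 10.0% ± 2.88. The log2 ratio of Orm3 to Orm1 counts moved from -3.73 to 1.16, and all 3 libraries of each group lay apart (exact permutation test, two-sided, p = 0.1, the smallest that 3 against 3 libraries allow).

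**Figure D2:**
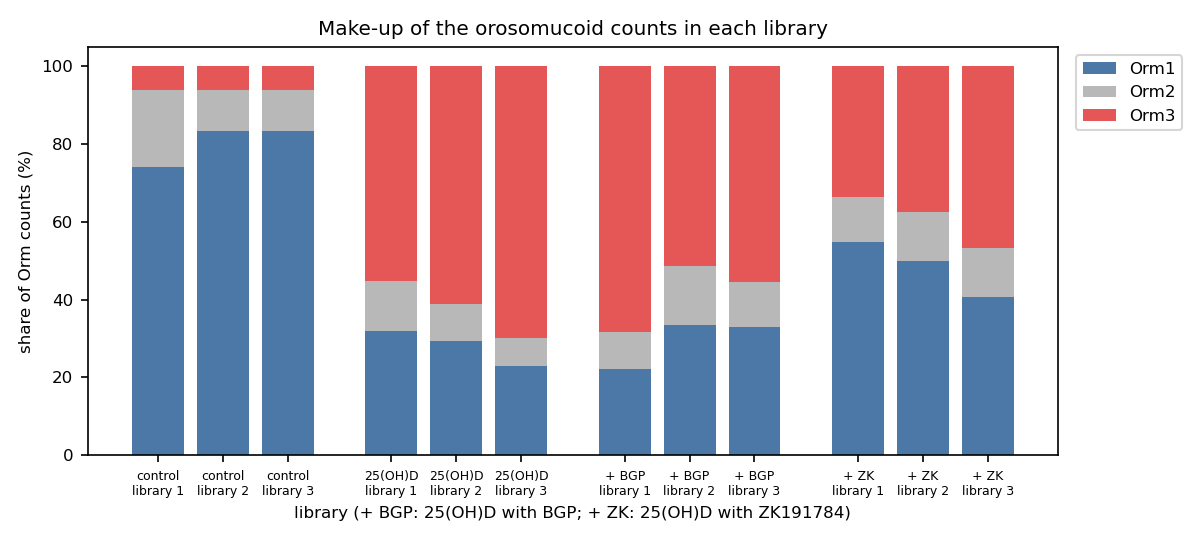
Share of the summed Orm1, Orm2 and Orm3 counts (percent) that each gene holds, 1 bar per library. Orm1 takes 74.0 to 83.5% in control, and Orm3 takes 55.1 to 69.9% with 25(OH)D.

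Haptoglobin binds free hemoglobin in plasma. Hp stood at 285.4, 441.5 and 276.7 CPM in control and at 2534, 3254 and 3496 CPM with 25(OH)D. It rose 9.25-fold (log2 3.21, SE 0.20, adjusted p 6.31e-07), with groups far apart. Hemopexin, which binds free heme, was barely counted: 0, 6 and 3 counts in the control libraries and 0, 0 and 4 with 25(OH)D. The ratio of its group levels was 0.490 (95% interval 0.110 to 1.76, counting error only), and an exact permutation test gave p = 0.7. Any difference in Hpx was not detectable at this depth.

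Ceruloplasmin carries copper and oxidizes iron for export from cells. Cp moved opposite to the orosomucoids, from 685.3, 854.6 and 815.7 CPM in control to 356.2, 375.3 and 320.4 CPM with 25(OH)D. The fall was 2.24-fold with no overlap of the groups (log2 -1.16, SE 0.18, adjusted p 0.00124).

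The other classical acute-phase genes were near the floor of the assay. Lcn2, whose product binds bacterial iron carriers, had 4, 4 and 2 counts in control and 0, 0 and 2 with 25(OH)D. Its level ratio was 0.221 (95% interval 0.0235 to 1.04, exact permutation p = 0.2). Saa3, a serum amyloid made outside the liver, had 2, 0 and 1 counts in control and 0 in every 25(OH)D library, which allows up to 0.250 CPM over that group. Serpina3n, a secreted inhibitor of serine proteases, had 0 counts in control, which allows up to 0.227 CPM, and 1 count in 1 library with 25(OH)D. So Lcn2, Saa3, Hpx and Serpina3n did not pass the filter, and their intervals allow changes in either direction.

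The levels of Orm1 and Orm2 also followed a feature of the libraries that the groups do not explain. This is the log2 ratio of counts on ribosomal protein genes to counts on their pseudogenes and Gm-numbered genes. It ran from -1.67, -1.78 and -0.57 in the control libraries to -0.44, -1.15 and -1.75 with 25(OH)D. It was -1.65, -0.44 and -1.11 with BGP added and -0.78, -1.12 and -1.57 with ZK191784. Within a group the order of the Orm2 levels was the order of this ratio in 4 of 4 groups, and that of Orm1 in 3 of 4. Orm3 matched it in 1 of 4, but its highest library was that of the highest ratio in 3 of 4. Cp matched it in 2 of 4. Hp matched it in 0 of 4 and ran in reverse order in 2 of 4. Deviations of log2 CPM from the group mean correlated with those of the ratio at 0.89 (Orm1), 0.98 (Orm2) and 0.67 (Orm3). For Cp and Hp the correlation was 0.65 and -0.53. With the ratio as a covariate the rise with 25(OH)D was 3.22 for Orm1, 4.47 for Orm2 and 8.15 for Orm3 on the log2 scale. What the ratio stands for was not tested, and the share of all genes tested that follow it was not counted.

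**Figure D3:**
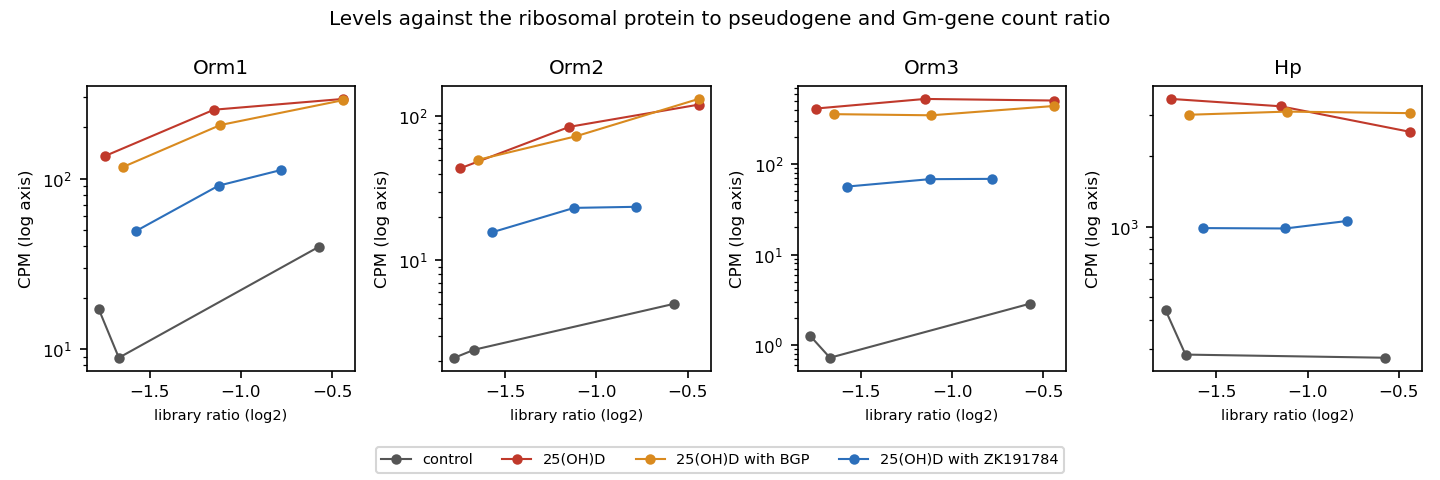
CPM (log axis) of Orm1, Orm2, Orm3 and Hp against the log2 library ratio defined above, 1 point per library, lines joining the 3 libraries of a group. Orm2 climbs with the ratio in 4 of 4 groups. Hp climbs with it in 0 of 4 and falls with it in 2 of 4.

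Adding 4 mM BGP to 25(OH)D gave levels that overlapped those of 25(OH)D alone for each of the 5 genes tested. Of the 5 genes tested 0 were called by edgeR, and 0% of all genes tested were called. An unadjusted p under 0.05 was held by 268 of the 14394 genes, a smaller share than the 0.05 that would arise if no gene differed. DESeq2 also called 0 genes. Orm3 stood at 359.6, 443.0 and 349.2 CPM with BGP added, overlapping the 25(OH)D libraries, although the means lay further apart than the SD of either group. Its difference was -0.34 on the log2 scale (95% interval -0.84 to 0.17, adjusted p 1). For Orm1, with 116.7, 288.8 and 206.3 CPM, the difference was -0.16 (95% interval -1.22 to 0.90). These intervals are wide for the orosomucoids, and a 2-fold fall of Orm1 lies inside its own.

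Hp had narrower limits than the orosomucoids, with an interval as wide as that of Cp. It held 2994, 3042 and 3088 CPM with BGP added, a difference of -0.02 from 25(OH)D alone (95% interval -0.42 to 0.37). Cp held 251.9, 393.5 and 261.5 CPM, a difference of -0.21 (95% interval -0.61 to 0.18). Orm2 held 49.9, 132.1 and 72.7 CPM, a difference of 0.04 (95% interval -0.84 to 0.91). The Orm sum differed by -0.24 (95% interval -1.08 to 0.60). Counts of the rare genes stayed low, with 1, 2 and 4 for Lcn2, 2, 2 and 1 for Hpx, 0 in each library for Saa3 and 0, 0 and 1 for Serpina3n.

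The group given 25(OH)D and BGP was also set against the same control libraries, so this is no second sample of the control. Of the tested genes 4 rose and 1 fell, where 3.9% of all genes tested rose and 4.35% fell. Orm1 was 9.32-fold, Orm2 26.8-fold, Orm3 235.0-fold and Hp 9.09-fold higher than control, with adjusted p of 0.00216, 7.17e-05, 5.31e-08 and 8.73e-07. Cp was 2.60-fold lower (adjusted p 0.000407). With 1 library left out the log2 rise of Orm1 ran from 2.85 to 3.98 and that of Orm3 from 7.54 to 8.55. Both were highest without control library 3.

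With ZK191784 given beside 25(OH)D, orosomucoid and haptoglobin levels were lower than with 25(OH)D alone, and ceruloplasmin was higher. Orm2, Orm3 and Hp fell and Cp rose by edgeR's test, while 2.11% of all genes tested fell and 1.42% rose. Both comparisons use the 25(OH)D libraries, so opposite directions in them are not independent.

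**Figure D4:**
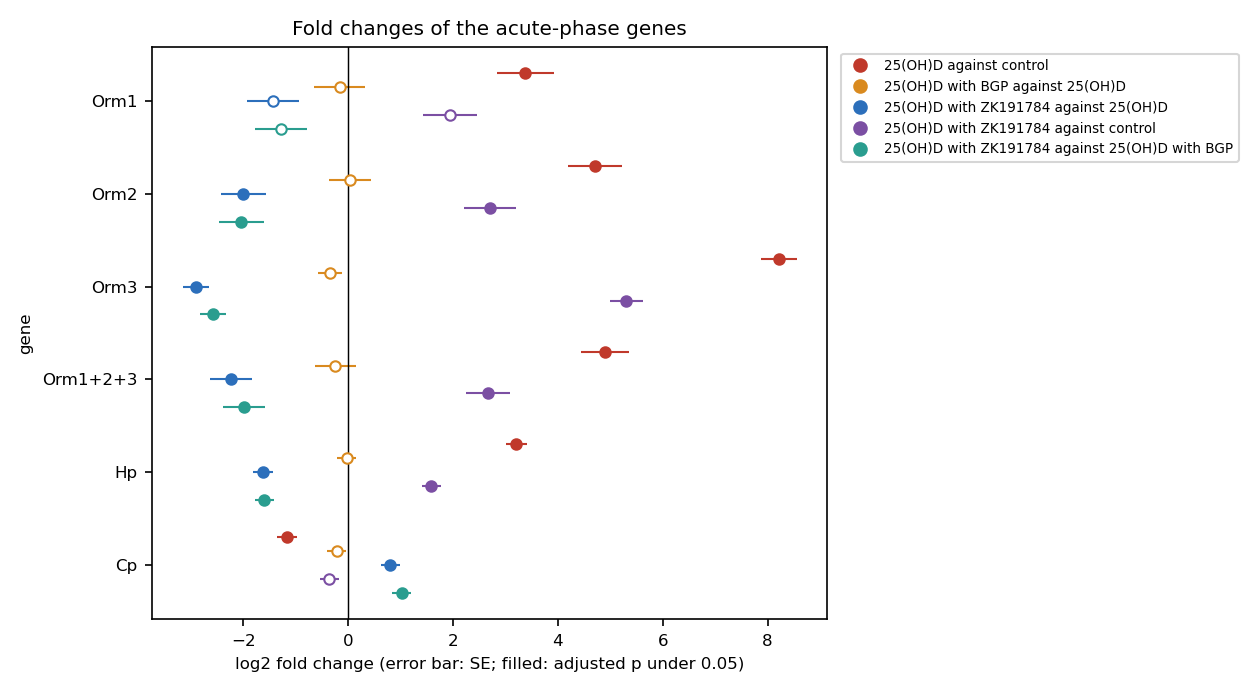
Log2 fold change of each tested gene and of the Orm sum in 5 comparisons; error bars are SE and filled points have an adjusted p under 0.05. With ZK191784 beside 25(OH)D the log2 changes against 25(OH)D alone run from -2.90 (Orm3) to 0.81 (Cp), and those for BGP lie between -0.34 and 0.04.

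Orm3 showed the widest gap. It held 69.0, 68.5 and 56.7 CPM with ZK191784, below every 25(OH)D library, a 7.48-fold fall (log2 -2.90, SE 0.25, adjusted p 3.25e-05). Hp held 1057, 982.1 and 986.0 CPM, a 3.07-fold fall (log2 -1.62, SE 0.18, adjusted p 0.000336). Both genes kept this call with any 1 library left out.

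Orm2 held 23.5, 23.1 and 15.7 CPM with ZK191784, also below every 25(OH)D library, and fell 3.99-fold (log2 -1.996, SE 0.42, adjusted p 0.0197). That call was lost in edgeR without 25(OH)D library 1 (adjusted p 0.0866) or 2 (0.0700), and without ZK191784 library 1 (0.0599), 2 (0.0840) or 3 (0.100). Its adjusted p ran from 3.23e-12 to 0.1 over 19 alternatives, and its log2 change from -2.31 to -1.63.

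Orm1 held 112.2, 90.9 and 49.4 CPM with ZK191784. The groups did not overlap, but the difference of -1.44 (SE 0.50, 95% interval -2.52 to -0.35) had an adjusted p of 0.2 and was not called. In a fit that took the library ratio as covariate it was -1.39 with an adjusted p of 2.18e-06, the only one of 19 alternatives that called it. The Orm sum held 204.7, 182.5 and 121.8 CPM and fell 4.69-fold (log2 -2.23, SE 0.40, adjusted p 0.00762).

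Cp held 702.6, 598.6 and 543.3 CPM with ZK191784, above every 25(OH)D library, a 1.75-fold rise (log2 0.81, SE 0.18, adjusted p 0.027). In edgeR the call was lost without 25(OH)D library 1 (adjusted p 0.0896), 2 (0.0712) or 3 (0.0989), and without ZK191784 library 1 (0.116) or 2 (0.0980). The log2 change stayed between 0.71 and 0.89 over 19 alternatives, whose adjusted p ran from 2.36e-06 to 0.116.

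The rare genes gave no clear difference here. Lcn2 had 3, 0 and 8 counts with ZK191784, of which library 3 held most, and its ratio to 25(OH)D was 4.84 (95% interval 1.06 to 44.9, counting error only). An exact permutation test over the libraries gave p = 0.4. Hpx had 1, 1 and 0 counts, Saa3 0, 1 and 0, and Serpina3n 0 in each library, which allows up to 0.220 CPM over the group.

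The same group can be set against the libraries given 25(OH)D and BGP, which share none with the comparison of 25(OH)D against control. Orm2, Orm3 and Hp were lower and Cp was higher, where 1.65% of all genes tested were lower and 1.6% higher. Orm3 was 5.93-fold lower (adjusted p 1e-04), Hp 3.02-fold lower (0.000436) and Cp 2.03-fold higher (0.00777) by edgeR. Orm1 was 2.42-fold lower and not called (adjusted p 0.291). Orm2 was 4.09-fold lower (adjusted p 0.019) and the Orm sum 3.97-fold lower (0.0159). Orm2 lost its call without BGP library 2 (adjusted p 0.0681) and without ZK191784 library 1 (0.0585), 2 (0.0833) or 3 (0.0942). The sum lost its call without the same libraries, with adjusted p of 0.0567, 0.0502, 0.0781 and 0.0833, and over 19 alternatives its adjusted p ran from 1.32e-08 to 0.169. Over the 19 alternatives that of Orm2 ran from 4.14e-12 to 0.0942.

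Levels with ZK191784 were still above control for 3 of the tested genes. Against control 0.507% of all genes tested were higher and 0.215% lower. Orm3 was 39.6-fold (log2 5.31, SE 0.32, adjusted p 5.94e-06), Hp 3.01-fold (adjusted p 0.00123) and Orm2 6.55-fold higher (adjusted p 0.0269). The rise of Orm1, 3.84-fold, was not called (adjusted p 0.175) although the groups did not overlap. Cp overlapped control, with a difference of -0.35 (95% interval -0.75 to 0.04, adjusted p 0.851). The Orm sum was 6.36-fold higher (adjusted p 0.0105).

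The smaller of these differences lost or gained calls when 1 library was left out. The log2 rise of Orm2 against control then ran from 2.48 to 3.22, with 2.71 in the main fit. In edgeR, Orm2 lost its call against control without control library 1 (adjusted p 0.156) or 2 (0.146), and without ZK191784 library 1 (0.0864) or 2 (0.120). The Orm sum lost its call without control library 2 (adjusted p 0.0725) and without ZK191784 library 1 (0.0503) or 2 (0.0618). Without control library 3 Orm1 was called (adjusted p 0.0356, log2 2.71), and the log2 values of Orm3 and the sum were 5.99 and 3.40. These were the highest log2 values with 1 library left out. The lowest were 1.57 for Orm1, 4.97 for Orm3 and 2.32 for the sum. The range of adjusted p over 19 alternatives was 1.18e-06 to 0.865 for Orm1, 2.56e-14 to 0.156 for Orm2 and 3.06e-09 to 0.103 for the sum. Orm3 and Hp were called against control in all 19 alternatives.

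The order of the groups was thus alike for Orm3 and Hp. Control was lowest, 25(OH)D with ZK191784 was next, and 25(OH)D with BGP and 25(OH)D alone were highest, overlapped and were not told apart by the test. Orm3 means were 1.61 ± 1.11, 64.7 ± 6.92, 383.9 ± 51.4 and 484.7 ± 61.3 CPM in that order (SD, n = 3). Hp means were 334.5 ± 92.8, 1008 ± 42.4, 3041 ± 46.9 and 3095 ± 500.4 CPM in the same order. For Cp the order was turned round: 302.3 ± 79.1 with BGP, 350.6 ± 27.9 with 25(OH)D, 614.8 ± 80.9 with ZK191784 and 785.2 ± 88.7 in control. Neither the first pair nor the last pair of Cp levels was told apart by the test.

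The Orm shares with ZK191784 also lay between the others. Orm3 held 39.3% ± 6.63 of the family's counts and Orm1 held 48.4% ± 7.24 (SD, n = 3). With BGP added the shares were 58.4% ± 8.87 for Orm3 and 29.5% ± 6.34 for Orm1. The log2 ratio of Orm3 to Orm1 was -0.30 with ZK191784 against 1.16 with 25(OH)D alone, with no overlap (exact permutation p = 0.1, the smallest possible). Against the BGP group, whose ratio was 1.00, p was also 0.1.

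Regulators of acute-phase genes were described from lists, each by how many genes were called. Of 21 genes of the interleukin-6 family and its STAT3 and C/EBP relays, 18 were tested, and 4 rose and 1 fell with 25(OH)D, where 4.76% of all genes tested rose and 3.93% fell. With the library ratio in the fit 6 rose and 3 fell. That fit called 2850 of the 14394 genes tested, and the main fit 1250. The median log2 change was 0.24, where all genes tested had a median of -0.05. Cebpb, a transcription factor that binds acute-phase promoters, held 405.5, 450.0 and 462.2 CPM in control and 1565, 1620 and 1297 CPM with 25(OH)D. It rose 3.40-fold (log2 1.77, SE 0.14, adjusted p 4.68e-06). Il6st, which encodes gp130, rose 2.65-fold from 103.4 to 273.6 CPM (adjusted p 0.00012), and Il6ra, the interleukin-6 receptor, rose 3.89-fold from 8.09 to 31.5 CPM (adjusted p 0.00247). Tyk2, a Janus kinase named after its value was seen, rose 1.70-fold (adjusted p 0.0202), and Il11ra1, the interleukin-11 receptor, fell 2.34-fold (adjusted p 0.00158).

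With ZK191784 beside 25(OH)D, 2 genes of this list fell and 0 rose. Cebpb held 763.6, 684.4 and 639.7 CPM, below every 25(OH)D library, a 2.15-fold fall (adjusted p 0.000523). Il6st fell 1.90-fold to a mean of 144.2 CPM (adjusted p 0.00576). Without BGP library 2, or with no count filter, 1 gene of the list was also called higher. With the library ratio in the fit 5 were lower and 2 higher. That fit called 1638 of all genes tested, and the main fit 508. The list's median change was -0.08, with 0.02 for all genes tested. With BGP added 0 genes of any list were called by edgeR.

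**Figure D5:**
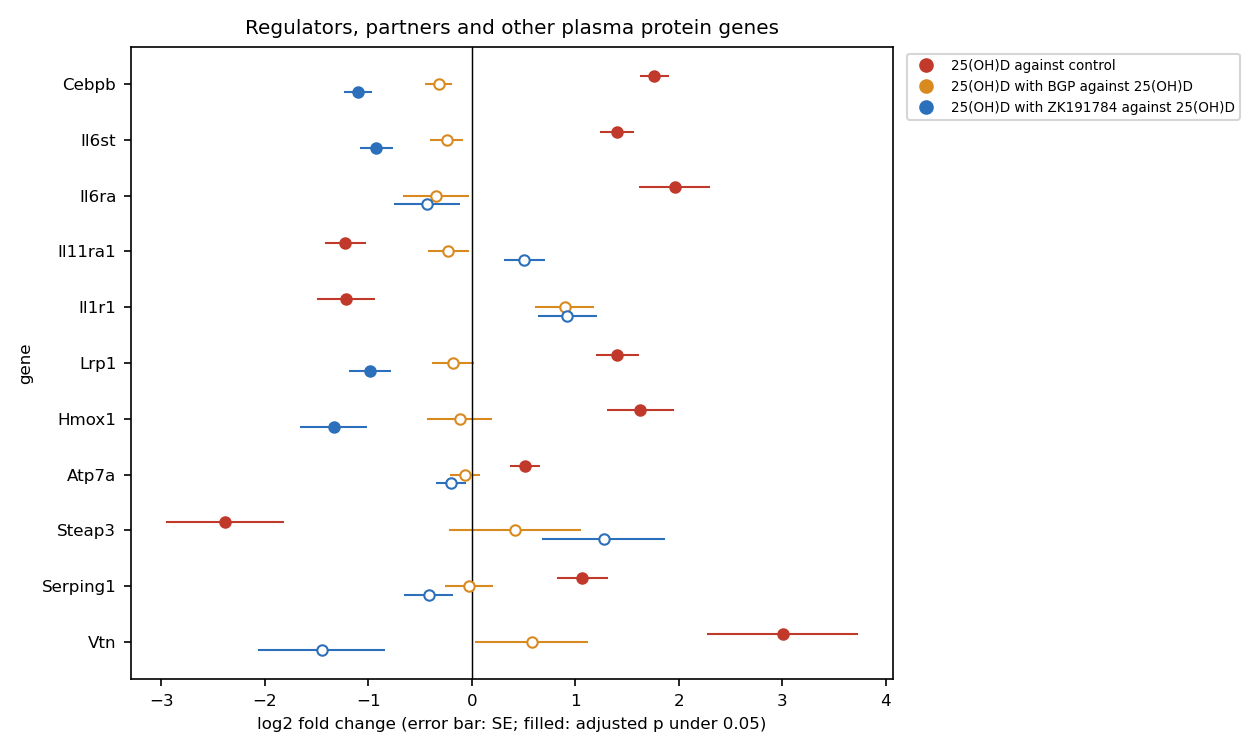
Log2 fold change with SE of regulators, iron and heme partners and other plasma protein genes in 3 comparisons; filled points have an adjusted p under 0.05. Cebpb, Il6st, Lrp1 and Hmox1 are filled in both the 25(OH)D and the ZK191784 comparison, on opposite sides of 0.

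Of 21 genes of the interleukin-1, TNF and NF-kB list 20 were tested, and 0 rose and 1 fell with 25(OH)D, near the 4.76% and 3.93% of all genes tested. The median was 0.07. These counts depended on the fit: 1 gene was higher with RLE scaling, 2 with DESeq2 and 3 with no filter (0 lower). With the library ratio 3 were higher and 2 lower, in a fit that called 2850 of the 14394 genes tested. With only the 2 groups fitted 0 were lower. The gene that fell was Il1r1, the interleukin-1 receptor, which fell 2.32-fold from 9.38 to 4.02 CPM (adjusted p 0.0165). This call was lost, leaving 0 lower genes, when library 1 of either group or library 2 of the 25(OH)D group was left out. In turn 1 gene of the list was called higher without control library 2 or 3, 25(OH)D library 3 or BGP library 2. With ZK191784 0 genes of the list were called, or 2 lower with the library ratio in the fit, which called 1638 of all genes tested.

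Haptoglobin, hemopexin and ceruloplasmin act with receptors and enzymes of heme and iron handling. Of 23 such genes 17 were tested, and 3 rose and 1 fell with 25(OH)D (median -0.12), where 4.76% of all genes tested rose and 3.93% fell. With only the 2 groups fitted 1 rose and 0 fell, and with no filter 2 rose. Lrp1, the uptake receptor for heme-laden hemopexin, rose 2.65-fold from 86.5 to 229.5 CPM (adjusted p 0.00082). Hmox1, heme oxygenase, held 25.7, 56.3 and 22.1 CPM in control and 76.2, 124.4 and 122.0 CPM with 25(OH)D, a 3.09-fold rise (adjusted p 0.0065). Atp7a, a copper pump, rose 1.43-fold (adjusted p 0.0464), and Steap3, a ferrireductase, fell 5.24-fold from a mean of 4.59 CPM (adjusted p 0.0192). The count of higher genes was 2, not 3, whichever library was left out. The count of lower genes was 0 without control library 3 or 25(OH)D library 1.

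Lrp1 and Hmox1 fell when ZK191784 was given beside 25(OH)D. Lrp1 fell 1.98-fold to 115.9 CPM (adjusted p 0.0179) and Hmox1 2.52-fold to 42.6 CPM (adjusted p 0.0395). These calls were not firm: the list's 2 lower genes became 0 without 25(OH)D library 2 or any 1 of the 3 ZK191784 libraries. They became 1 without 25(OH)D library 1 or 3, and also without any 1 of the 3 BGP libraries.

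Of 32 other plasma protein genes of the acute phase, 9 had 0 counts in all libraries and 11 were tested. With 25(OH)D 2 of these rose and 0 fell, where 4.76% of all genes tested rose and 3.93% fell. With no filter 4 rose, with the library ratio in the fit 4 rose and 1 fell, and with only the 2 groups fitted 0 rose. The fit with the library ratio called 2850 of the 14394 genes tested. The median change of the list was -0.04. Serping1, which inhibits complement C1, went from 8.02 to 16.8 CPM, a 2.10-fold rise (adjusted p 0.0147). Vtn, vitronectin, rose from 0.308 to 2.66 CPM (adjusted p 0.0213), in few counts. The count of 2 became 0 when any 1 of libraries 1 and 2 of control or of 25(OH)D was left out. In turn 1 gene was called lower without control library 1 or any 1 BGP library. With ZK191784 0 genes of this list were called, or 1 higher without control library 1 or BGP library 2. The fit with the library ratio also called 1 higher, and 1638 of all genes tested.

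Markers of cells that also make these proteins were read in the same libraries. The 8 adipocyte markers summed to 195 to 271 CPM in control, 18.6 to 27.5 with 25(OH)D, 21.2 to 25.7 with BGP added and 194 to 241 with ZK191784. Car3, carbonic anhydrase 3, held most of that, and Adipoq, the adiponectin gene, was under 1 CPM on average in each group. The sum was thus lower in both groups with the highest Orm and Hp levels. Fabp4, a fatty acid binding protein gene, went the same way, with 76, 10, 11 and 61 counts in control, 25(OH)D, BGP and ZK191784. Adipoq, in few counts, ran the other way with 1, 8, 11 and 1 counts in the same order. The remaining adipocyte markers also had few counts. The 9 macrophage and leukocyte markers, of which Ptprc held most, spanned 248 to 533 CPM in control and 234 to 425 with 25(OH)D. Neutrophil markers spanned 143 to 308 CPM and 114 to 226 CPM in these groups, mostly S100a9 and Csf3r, with Elane and Ngp at 0 in all libraries. The endothelial markers spanned 26.6 to 64.0 and 17.4 to 43.6 CPM, with Cdh5 at 0. The summed osteoblast level given above, mostly Sparc and Col1a1, was lower with 25(OH)D in the libraries in which the orosomucoids were high. Its members did not all move that way: Alpl, alkaline phosphatase, held 22.6 to 29.7 CPM in control and 46.0 to 49.7 with 25(OH)D, and Sp7, a transcription factor, overlapped. Fabp4, Adipoq, Alpl and Sp7 were named after their values were seen. The part of these cell markers in the result was not tested.

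Genes with the most similar course over the 12 libraries were found by the root mean square difference of their centred log2 CPM, among 11467 genes. For Orm3 they were Igfbp5, an insulin-like growth factor binding protein, at 0.75 and Gadd45a, a stress response gene, at 1.05. Igfbp5 averaged 23.3 CPM in control, 2332 with 25(OH)D, 1934 with BGP added and 183.9 with ZK191784. The value of 0.75 for Orm3 was larger than that of the nearest gene of Orm1, Orm2, Hp or Cp. Orm3 also varied most: its SD over the 12 libraries was 3.34 on the log2 scale. That of Orm1 was 1.60, of Orm2 1.99, of Hp 1.41 and of Cp 0.63, so these distances are not on a like scale. For Hp the nearest genes were Pitpnm2, a phosphatidylinositol transfer protein, at 0.21 and Il34, a ligand of the CSF1 receptor, at 0.31.

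Orm1 was nearest to Phlda1 at 0.34 and to Vegfa, the vascular growth factor, at 0.40. Orm2 was nearest to Phlda1 at 0.35 and to Adgrg6, an adhesion receptor, at 0.40. Phlda1 averaged 10.5, 154.0, 185.2 and 52.1 CPM in control, 25(OH)D, BGP and ZK191784. The Orm sum was nearest to Gadd45a at 0.41 and Tgm2, a transglutaminase, at 0.45. Cp was nearest to Myorg, a glycosidase, at 0.11 and Efna5, an ephrin, at 0.13. Efna5 averaged 80.9 CPM in control, 32.3 with 25(OH)D, 27.7 with BGP added and 68.6 with ZK191784.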

How the data were processed

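Gene counts per library were deposited by the authors as raw counts of 3' mRNA-seq reads (TRIzol RNA, QuantSeq, per the labels' protocols). The submitters' processing notes name STAR 2.7.9a, featureCounts, Subread 2.0.3, DESeq2 1.38.2 and mm39. The strand setting, the annotation release and any filter: not given in the sources used here. Reads of overlapping or antisense genes therefore cannot be told apart.

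Of 56691 genes, 20212 had 0 counts. Symbols repeated in 882 entries were kept apart. edgeR 4.0.16 (R 4.3.3) filtered by filterByExpr (minimum count 10, total 15), scaled by TMM and fitted a robust quasi-likelihood model to all 12 libraries, 1 coefficient per group, with Benjamini-Hochberg adjustment over 14394 genes and a threshold of 0.05. The SE is the absolute log2 change divided by the square root of F. The Orm sum was tested in the same fit with the 3 rows replaced by their sum. Rare genes got exact binomial intervals on summed counts (95%) and a floor of 3 counts per group over its unscaled total, which cover counting error only, and an exact permutation test over libraries. For similar courses, 0.5 was added to CPM before the log.

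Named were all 9 genes and the sum, up to 4 called genes per list and comparison with the smallest p, and the 2 nearest genes per member, without Gm-numbered, Rik or pseudogene names and above a mean log2 CPM of 1. Members, lists and the library ratio were chosen with earlier results of these data known. The method was tested on simulated counts with planted rises, drawn independently for each gene and library. That simulation held no pattern of the library ratio, so it says nothing on the effect of the ratio. Promoters came from RefSeq, transcripts were aligned with Biopython 1.88, and figures drawn with matplotlib 3.10.9. Alternatives were RLE scaling, DESeq2 1.42.0, no filter, the library ratio as covariate, fits of only the groups compared, a replicate block, a 2 CPM filter in 3 libraries, and leaving out each library.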

Additional observations from a re-analysis of the deposited data

How the results depend on the processing

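The rises of Orm1, Orm2, Orm3, the Orm sum and Hp and the fall of Cp with 25(OH)D kept their direction and call in all 19 alternatives, and so did Orm3 and Hp in each comparison with ZK191784. No called result changed sign. The Orm sum lost its call without a filter on low counts at -2.20 (ZK191784 against 25(OH)D), 2.69 (against control) and -1.98 (against the BGP group), with edgeR adjusted p of 0.105, 0.103 and 0.169, and at 2.67 against control with only the 2 groups fitted. The number of genes called with DESeq2 was 797 for ZK191784 against 25(OH)D, 265 against control and 760 against the BGP group, where edgeR gave 508, 104 and 468. Without a filter 220 genes were called against control. With only the 2 groups fitted, 763 genes were called for 25(OH)D against control, 712 for BGP against control and 42 for ZK191784 against control, where the whole fit gave 1250, 1187 and 104.

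Taking the library ratio as covariate, edgeR called 2850 genes for 25(OH)D against control, 6 for BGP against 25(OH)D and 1638 for ZK191784 against 25(OH)D. It called 2680 for BGP against control, 671 for ZK191784 against control and 1599 for ZK191784 against BGP, and 1 member, Cp, then became lower with ZK191784 than control (log2 -0.41, adjusted p 0.0361). The cause was not tested.

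Same-numbered libraries did not deviate together: correlations of their deviations ran from -0.71 to 0.61. Of 12 libraries, 3 correlated best with their own number. Larger differences between libraries could hide a shared culture or batch, so this check cannot show that the number is no pairing. The main fit used no pairing. With the replicate block 334 genes were called for ZK191784 against 25(OH)D, 56 against control and 304 against BGP, and the Orm sum lost its call at 2.71 (against control) and -1.96 (against BGP). Orm2 lost its call in the 3 ZK191784 comparisons with the block (adjusted p 0.0587, 0.0912 and 0.059). The heme and iron list then had 2 higher and 0 lower genes with 25(OH)D, and 1 lower with ZK191784.

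Leaving out 1 library gave 813 to 1308 genes for 25(OH)D against control, 794 to 1210 for BGP against control, 269 to 566 for ZK191784 against 25(OH)D, 34 to 121 against control and 234 to 569 against BGP. The Orm sum ran from 2.32 to 3.40 for ZK191784 against control and from -2.15 to -1.77 against BGP. Members higher with ZK191784 than 25(OH)D numbered 0 to 1. Depth limits Lcn2, Saa3, Hpx and Serpina3n, whose floors lie between 0.220 and 0.250 CPM a group.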
